A study of Mus musculus with 23 samples.

Results

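Zygotes in which Rfx1 had been knocked down were compared directly with zygotes in which Mlx had been knocked down, a contrast that asks how the 2 knockdowns (KD) differ from each other and uses no control. It took the 3 siRfx1 and the 3 siMlx zygote libraries, 6 of the 23 RNA-seq libraries of a series on transcription factors that act when the mouse embryo first switches on its own genes. All embryos came from B6D2F1 (C57BL/6xDBA/2) oocytes at the germinal vesicle (GV) stage, which received a mixture of siRNAs against 1 gene, were matured in vitro and fertilized, and were collected as late zygotes at 14 h post fertilization by the labels. siRfx1 zygotes received siRNAs against Rfx1 and siMlx zygotes siRNAs against Mlx; siEtv5 zygotes (3 libraries, siRNAs against Etv5) and siCtrl zygotes (3 libraries, a control siRNA) are quoted as side values and entered only an alternative fit. The siEtv5 zygotes were also set against 2 libraries of siEtv5 late 2-cell embryos (36 h post fertilization by the labels) to draw stage lists. The labels hold the siRNA name under a tag for overexpression and describe fertilization by incubation with sperm, whereas the methods describe KD, sperm injection and a later hour. The methods say that RNA-seq was repeated for each group, but the labels tie no library to a collection and give no number of embryos. The p-values cover the spread between these libraries, of which a part may be technical. The siRNAs act on RNA only, so maternal protein made before injection can remain.

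RFX1 is a winged-helix transcription factor that binds the X-box, an element of promoters of cilia genes and of MHC class II genes, as a dimer with itself or with other RFX proteins. MLX is a basic helix-loop-helix leucine zipper protein that has no strong activation domain of its own. It pairs with the glucose-sensing Mondo proteins (MLXIP and MLXIPL) or with the MXD repressors at E-box elements. In the late zygote most RNA is still maternal and stored from the oocyte, and the first wave of embryonic transcription is under way.

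The deposited values were FPKM (fragments scaled to transcript length and to library size), added up within each gene and divided by 1 factor per library, from 0.867 to 1.12, so that the median gene agreed between libraries (rescaled FPKM). The aligned bases behind the values were 595 to 949 Mb in siRfx1 and 484 to 708 Mb in siMlx libraries, and 8448 to 8899 and 8354 to 8738 genes reached 1 FPKM. Across the 8720 genes tested, the correlation (r) of log2 levels was 0.953 to 0.968 within siRfx1, 0.919 to 0.956 within siMlx and 0.927 to 0.95 between them, so that the pairs between groups lay inside the range of pairs within siMlx. All 20 oocyte and zygote markers passed the filter in these libraries. Of the 15 markers of cumulus and granulosa cells 14 stayed under 1 FPKM in all 6 libraries, as did 9 of 12 markers of sperm and spermatids and 5 of 5 blood markers. The summed level of oocyte and zygote markers was 23060 to 29160 in siRfx1 and 24200 to 34960 in siMlx, that of cumulus and granulosa markers 6.70 to 8.08 and 2.22 to 8.41, and that of sperm and spermatid markers 31.9 to 40.7 and 37.2 to 43.8, all of which overlapped.

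Each siRNA target was lower in its own KD group. Rfx1 was at 0.462, 0.134 and 0.434 rescaled FPKM in siRfx1, against 1.29, 0.996 and 1.39 in siMlx libraries. Its groups did not overlap, but its mean over the 6 libraries was under the 1 FPKM needed for the main test. In a fit without that filter its log2 fold change was -0.74 ± 0.20 (SE, adjusted p = 0.493, limma), and the exact permutation test (two-sided) gave p = 0.1, the smallest that 3 against 3 can give. Mlx was at 2.81, 1.67 and 4.20 rescaled FPKM in siRfx1, against 0.470, 0 and 0.464 in siMlx libraries. The groups again did not overlap, with a log2 fold change of 1.54 ± 0.33 (SE, 95% interval 0.79 to 2.29), and limma's p adjusted over all genes was 0.225, so neither target was called. As side values, Rfx1 was at 6.36, 2.02 and 5.56 in siEtv5 and at 2.49, 2.83 and 3.03 in siCtrl, so that siMlx libraries were also below all 3 siCtrl libraries. Mlx was at 3.71, 3.48 and 2.49 in siEtv5 and 1.50, 3.16 and 3.66 in siCtrl, and the siRfx1 values overlapped these. Mlx overlaps Psmc3ip on the opposite strand for its last bases, and the counting did not use strand; Psmc3ip itself was at 0.559, 1.16 and 2.54 in siRfx1 and 1.51, 0.444 and 1.16 in siMlx.

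**Figure D1:**
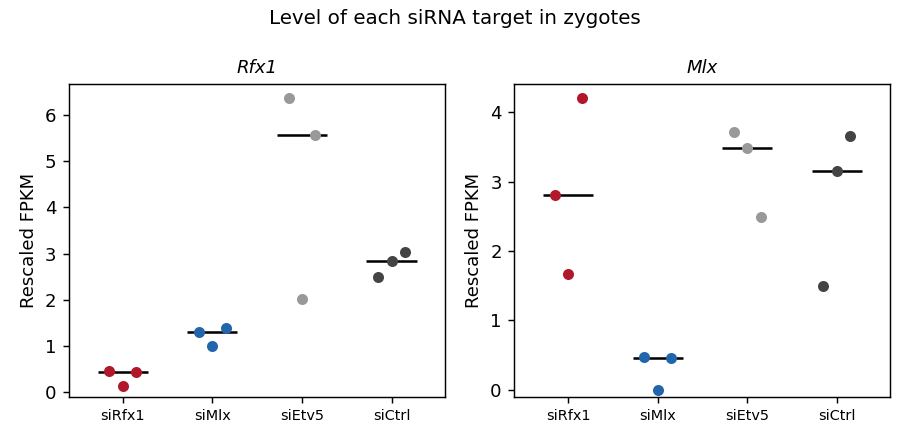
Rescaled FPKM of Rfx1 (left) and Mlx (right) in each zygote library, with a line at the median of each group of 3; siEtv5 and siCtrl are side values. The siRfx1 libraries were the lowest for Rfx1 (0.134 to 0.462) and the siMlx libraries for Mlx (0 to 0.470).

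The start of each target gene holds the letters bound by its own factor, which is why these sequences are shown (mm9, 250 bases before to 50 after the transcript start, plus strand, the strand of both genes; capitals mark CACGTG, the E-box, or GTTGCC, the letters of an X-box arm, on either strand). Mlx lies at chr11:100948604-100953521 and Rfx1 at chr8:86590735-86620891.
Mlx chr11:100948354-100948653: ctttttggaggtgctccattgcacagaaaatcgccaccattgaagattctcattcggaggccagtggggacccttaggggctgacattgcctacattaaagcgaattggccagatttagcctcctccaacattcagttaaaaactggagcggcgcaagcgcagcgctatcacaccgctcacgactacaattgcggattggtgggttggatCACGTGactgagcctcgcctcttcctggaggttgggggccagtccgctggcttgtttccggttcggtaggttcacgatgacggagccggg
Rfx1 chr8:86590485-86590784: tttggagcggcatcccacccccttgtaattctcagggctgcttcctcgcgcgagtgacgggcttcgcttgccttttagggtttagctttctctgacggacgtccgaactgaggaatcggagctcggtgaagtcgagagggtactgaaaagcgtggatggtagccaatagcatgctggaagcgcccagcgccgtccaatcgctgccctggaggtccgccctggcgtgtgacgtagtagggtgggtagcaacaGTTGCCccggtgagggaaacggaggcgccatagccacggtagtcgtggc
The E-box of Mlx begins 40 bases before the start and the GTTGCC of Rfx1 at base 2 of the transcript. CACGTG is in 10% of the same windows of all genes tested and GTTGCC in 11.9%, so a match alone is common. Neither was set against binding, which was not measured in these libraries.

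No member of either network was called. Of the 10 RFX family genes 5 were tested and 0 called by limma, with 1 at an unadjusted p under 0.05: Rfx2, a close relative of RFX1, with 3.04, 2.36 and 5.64 in siRfx1 and 1.43, 1.34 and 2.29 in siMlx (log2 fold change 0.75 ± 0.31, SE, adjusted p = 0.493, limma). Rfx5, Rfx7 and Rfxap, of which RFX5 and RFXAP act at MHC class II promoters, lay between -0.11 and 0.10, and Rfxank, their partner, had -0.81 at an unadjusted p of 0.234. Of the 13 genes of the MLX, Mondo and MAX network 8 were tested, 0 were called and only Mlx was at an unadjusted p under 0.05. The Mondo partner genes Mlxip and Mlxipl had log2 fold changes of 0.04 ± 0.26 and 0.27 ± 0.23 (SE), and Max, the common partner of the MYC proteins, had 0.01 ± 0.22. Myc was under the filter, with 0, 0.246 and 0.692 deposited FPKM in siRfx1 and 0.875, 1.74 and 1.96 in siMlx, groups that did not overlap. Txnip, which restrains glucose uptake and is a classical Mondo target, was at 38.9, 68.2 and 61.7 in siRfx1 and 40.0, 29.9 and 32.3 in siMlx (log2 fold change 0.68 ± 0.26, SE, adjusted p = 0.465, limma). These groups overlapped, and Txnip was at 35.2, 36.4 and 21.6 in siEtv5 and 75.55, 69.6 and 56.7 in siCtrl. It was the only one of 12 tested Mondo and glucose responsive genes at an unadjusted p under 0.05, and the list's median was 0.24 beside -0.01 for all genes. Without siRfx1 replicate 1 the median was 0.44 with 4 such members, without siRfx1 replicate 3 it was 0.15 with 0, and without siMlx replicate 1 it was 0.35 with 2. The count was also 0 without siMlx replicate 2 or siRfx1 replicate 2. None of 37 tested cilia and centrosome genes was called, and their median was -0.06. Only Ift46, a subunit of the intraflagellar transport complex, was at an unadjusted p under 0.05, at 9.72, 8.98 and 9.58 in siRfx1 against 12.3, 21.4 and 12.9 in siMlx (log2 fold change -0.62 ± 0.25, SE). Usf1, whose protein binds the same E-box letters, was at 8.30, 9.76 and 14.6 in siRfx1 and 4.27, 3.30 and 2.5 in siMlx (log2 fold change 1.43 ± 0.27, SE, adjusted p = 0.185, limma).

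Of the 8720 genes tested 10 (0.115%) were called by limma (adjusted p under 0.05, more than a doubling or halving), 4 higher (0.0459%) and 6 lower (0.0688%) in siRfx1. At an unadjusted p under 0.05 there were 417 genes higher (4.78%) and 417 lower (4.78%) in siRfx1. This total of 834, on which the counts for lists, side values and promoters rest, was 615, 1244 and 819 when siMlx replicates 1, 2 and 3 were dropped in turn and 984, 515 and 413 when siRfx1 replicates 1, 2 and 3 were. The median of all genes was -0.01, and 0.13 with FPKM as deposited. The 95% interval of the fold change lay within a fold of 2 either way for 63.5% of tested genes and within a fold of 4 for 97.3%. No gene was called in 2 of the alternative fits: all 4 zygote groups in a single limma fit (719 genes at an unadjusted p under 0.05) and limma's voom on estimated fragments (893 genes). Leaving out 1 library gave 3, 9 and 6 calls when siMlx replicates 1, 2 and 3 were dropped in turn, and 7, 5 and 3 calls when siRfx1 replicates 1, 2 and 3 were.

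**Figure D2:**
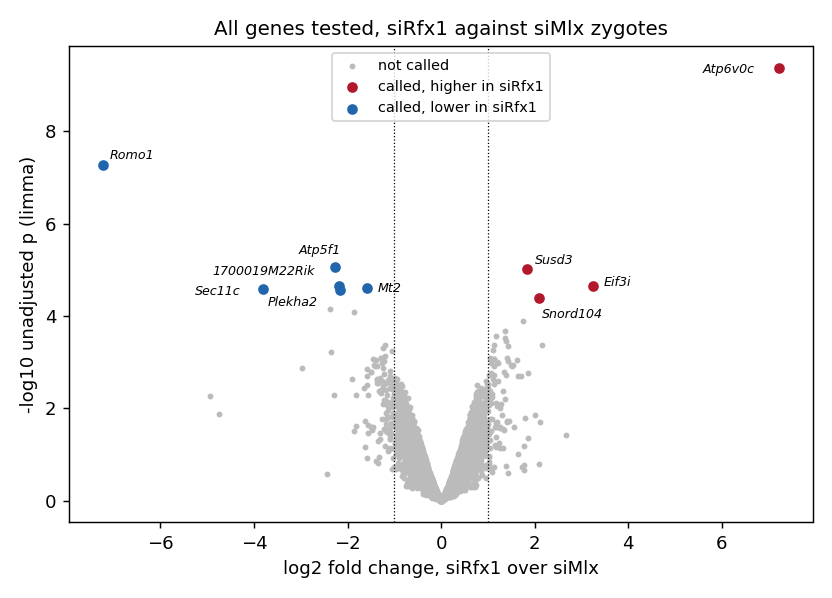
Each point is a tested gene, with its log2 fold change (siRfx1 over siMlx) and the negative log10 of its unadjusted limma p; dotted lines mark a fold of 2. The 10 called genes are named, and every other gene had a higher p.

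The clearest difference in a gene listed in all 6 libraries, with no overlapping neighbour, was in Susd3 (chr13:49326200-49344075), which encodes a cell surface protein with a sushi domain. It was at 13.1, 14.0 and 15.8 rescaled FPKM in siRfx1 and at 2.73, 3.41 and 3.70 in siMlx libraries. Every siRfx1 library was far above every siMlx library, with a log2 fold change of 1.84 ± 0.22 (SE, 95% interval 1.36 to 2.33, adjusted p = 0.0213, limma). It was at 15.6, 6.32 and 4.64 in siEtv5 and at 9.30, 15.2 and 14.96 in siCtrl, where siMlx is the low group. It was called in 2 of 6 fits that left out a library, and lost without siMlx replicate 1 or any siRfx1 library (adjusted p up to 0.178, limma).

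Mt2 encodes a metallothionein, a small cysteine-rich protein that binds zinc and copper. It was at 5.12, 4.31 and 3.83 in siRfx1, against 15.2, 14.96 and 15.7 in siMlx, groups far apart with little spread. The log2 fold change was -1.59 ± 0.21 (SE, adjusted p = 0.0264, limma). Its neighbour Mt1, the other metallothionein of the same cluster, missed the threshold with 0, 1.08 and 0.916 in siRfx1 and 10.6, 6.30 and 5.53 in siMlx (log2 fold change -2.37 ± 0.35, SE, adjusted p = 0.0553, limma); it was picked out after its values were seen. In siEtv5 Mt2 was at 3.52, 5.10 and 1.85 and in siCtrl at 14.2, 8.88 and 5.66, so that for Mt2 the siCtrl libraries lay between the siRfx1 and the siMlx libraries. Mt1 was at 3.93, 1.29 and 3.44 in siEtv5 and 27.5, 6.325 and 3.995 in siCtrl, where replicate 1 was above all siMlx libraries. Mt2 was not called in any of the 6 fits that left out a library (adjusted p 0.0534 to 0.185, limma).

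Both metallothionein promoters are shown because the 2 neighbours differed in the same direction (mm9, plus strand, 250 bases before to 50 after the start; capitals mark TGCGCNC or TGCACNC, the core letters of the metal response element bound by MTF1, on either strand).
Mt2 chr8:96696268-96696567: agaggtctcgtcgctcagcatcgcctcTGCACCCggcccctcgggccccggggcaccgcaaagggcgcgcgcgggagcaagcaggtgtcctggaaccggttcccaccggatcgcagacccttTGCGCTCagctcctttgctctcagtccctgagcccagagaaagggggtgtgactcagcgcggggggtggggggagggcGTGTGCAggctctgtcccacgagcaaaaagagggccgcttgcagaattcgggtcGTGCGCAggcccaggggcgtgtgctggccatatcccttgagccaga
Mt1 chr8:96702739-96703038: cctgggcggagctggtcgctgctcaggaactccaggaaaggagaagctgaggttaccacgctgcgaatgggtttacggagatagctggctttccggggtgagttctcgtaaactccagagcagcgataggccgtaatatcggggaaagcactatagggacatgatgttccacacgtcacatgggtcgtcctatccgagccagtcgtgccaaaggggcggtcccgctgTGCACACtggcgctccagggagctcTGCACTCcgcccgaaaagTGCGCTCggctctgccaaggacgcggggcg
The core was found 4 times in the Mt2 window and 3 times in the Mt1 window. At least 3 were in 3.77% and at least 1 in 37.3% of the windows of all genes tested. Neither window holds CACGTG or GTTGCC.

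Atp5f1, a subunit of the stalk of mitochondrial ATP synthase, was at 1.74, 3.33 and 2.67 in siRfx1, against 14.4, 13.7 and 20.3 in siMlx. All siRfx1 libraries were below all siMlx libraries (log2 fold change -2.26 ± 0.26, SE, adjusted p = 0.0213, limma). It overlaps Wdr77 on the opposite strand, which was at most 0.309 in these libraries, and its promoter holds 1 GTTGCC, 149 bases before the start. It was at 2.88, 3.67 and 17.2 in siEtv5 and 13.8, 2.93 and 2.74 in siCtrl, a spread within single groups as wide as the difference. It was lost without siMlx replicate 1, siRfx1 replicate 1 or siRfx1 replicate 3. Sec11c, the catalytic subunit of the signal peptidase, was at 3.79, 2.54 and 0 in siRfx1 and 29.6, 42.1 and 33.7 in siMlx (log2 fold change -3.80 ± 0.50, SE, adjusted p = 0.0264, limma). It was at 1.18, 0 and 40.2 in siEtv5 and 0, 0 and 19.97 in siCtrl, again with both low and high libraries in a group. Sec11c was called in 2 of 6 fits that left out a library. It was lost when any siMlx replicate or siRfx1 replicate 2 was dropped (adjusted p up to 0.0993, limma), and also without the filter.

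Another 5 of the called genes were listed at 0 in every library of a group, so no fold is given for them. Such a pattern was seen in 15 of all tested genes. A gene at 0 in a group passed the filter only where the other group lifted its mean to 1 FPKM, so this number depends on the filter. Eif3i, a WD40 subunit of translation initiation factor eIF3, was at 3.58, 14.4 and 11.2 in siRfx1 and at 0 in all siMlx libraries (adjusted p = 0.0264, limma), beside 3.46, 0.169 and 0 in siEtv5 and 0, 2.76 and 3.77 in siCtrl. Snord104, a small nucleolar RNA of 73 bases that guides RNA methylation, was at 2.88, 4.61 and 2.53 in siRfx1 and 0 in siMlx (adjusted p = 0.0352, limma). In siCtrl it was at 4.635, 0 and 0, and in siEtv5 at 0. It is shorter than most cDNA fragments of such libraries, and its promoter window holds 1 CACGTG, 178 bases before the start. Romo1, a small mitochondrial membrane protein linked to reactive oxygen species, was at 0 in all siRfx1 libraries and at 245, 59.9 and 225 in siMlx (adjusted p = 0.000227, limma). It was also at 0 in 2 siEtv5 and 2 siCtrl libraries, with 200 and 31.7 in the others. Romo1 overlaps the start of Nfs1, the cysteine desulfurase of iron-sulfur cluster assembly, on the opposite strand, and Nfs1 was at 11.9, 11.6 and 10.9 in siRfx1 and 8.92, 6.45 and 7.41 in siMlx. Plekha2, an adaptor with pleckstrin homology domains, was at 0 in all siRfx1 libraries and 3.498, 2.54 and 4.73 in siMlx (adjusted p = 0.0264, limma). It was at 0, 0 and 2.81 in siEtv5 and at 0 or close to it in siCtrl (highest 0.0288). 1700019M22Rik was at 0 in siRfx1 and 3.24, 2.81 and 4.81 in siMlx (adjusted p = 0.0264, limma), beside 0, 0 and 0.514 in siEtv5 and 1.88, 0 and 0 in siCtrl. Of these 5 only Romo1 was called in all 6 fits that left out a library, Eif3i in 1 and the other 3 in 0. In the fit without the filter Romo1 was called, but Eif3i, Snord104, Plekha2 and 1700019M22Rik were not.

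Atp6v0c, the proteolipid subunit of the vacuolar proton pump, had the lowest p of all (log2 fold change 7.22 ± 0.28, SE, adjusted p = 3.6e-06, limma), but it shares its bases with a second entry. It was at 152, 123 and 231 in siRfx1 and 0, 0 and 0.339 in siMlx. Atp6v0c-ps2 is listed on the same strand of chr17 over nearly the same bases, from 24300832 to 24306340 against 24300833 to 24306374, and was at 0, 74.2 and 0 in siRfx1 and 95.6, 128 and 177 in siMlx. The sum of both entries was 152, 197 and 231 in siRfx1 and 95.6, 128 and 177 in siMlx, groups that overlapped. With the entries summed, an alternative chosen after seeing the data, the log2 fold change was 0.55 ± 0.28 (SE, adjusted p = 0.572, limma). In siCtrl the same switch occurred between libraries of the same group, with Atp6v0c at 0, 215 and 233 and Atp6v0c-ps2 at 199, 0 and 0.

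**Figure D3:**
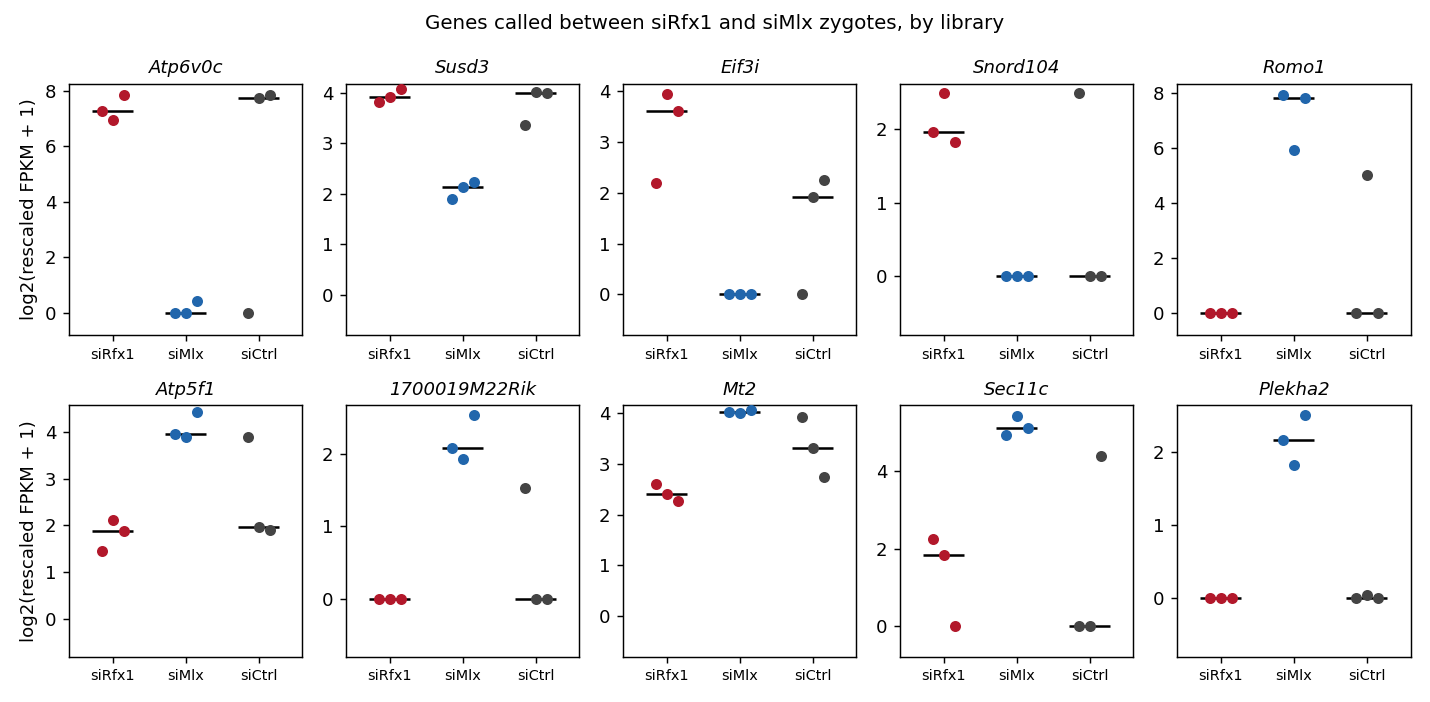
Level of the 10 called genes, as log2(rescaled FPKM + 1), in each siRfx1, siMlx and siCtrl library, with a line at the group median. siRfx1 and siMlx points do not overlap in any panel, and the siCtrl libraries are split between high and low values in several, from 0 to 233 rescaled FPKM for Atp6v0c.

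Among the genes that were not called, 4 are given here and others with their lists. Pcgf1, a subunit of the variant Polycomb complex that ubiquitinates histone H2A, was at 29.9, 37.4 and 53.1 in siRfx1 and 9.26, 14.8 and 9.21 in siMlx (log2 fold change 1.76 ± 0.28, SE, adjusted p = 0.0855, limma). It was at 38.8, 14.1 and 5.55 in siEtv5 and 10.7, 17.02 and 40.7 in siCtrl. Psmd11, a lid subunit of the proteasome, was at 10.4, 4.78 and 5.78 in siRfx1 and 27.3, 23.3 and 30.4 in siMlx (log2 fold change -1.87 ± 0.28, SE, adjusted p = 0.0582, limma), and was called in 3 of the 15 alternative fits that tested it. It was at 22.1, 8.465 and 25.5 in siEtv5 and 8.80, 22.6 and 5.93 in siCtrl, with both low and high libraries in each group. H1foo, the oocyte linker histone, was at 545, 816 and 1069 in siRfx1 and 309, 237 and 349 in siMlx (log2 fold change 1.4 ± 0.29, SE, adjusted p = 0.224, limma). Dnajb4, a co-chaperone of HSP70, was at 132, 124 and 95.02 in siRfx1 and 261, 240 and 306 in siMlx (log2 fold change -1.20 ± 0.23, SE, adjusted p = 0.185, limma). In each of these 4 genes the siRfx1 and siMlx libraries did not overlap. So it was for 7.90% of all tested genes with siRfx1 higher and 8.12% with siRfx1 lower.

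No gene of the chromatin lists was called. In the NuRD complex, which joins nucleosome remodelling to histone deacetylation, 8 of 10 tested members were above 0, beside 48.8% of all genes, and 2 were at an unadjusted p under 0.05 and higher, beside 4.78% of all genes. The median was 0.20 beside -0.01 for all genes, and 0.34 without siRfx1 replicate 1. Gatad2a, a scaffold subunit, was at 23.5, 52.6 and 57.2 in siRfx1, against 13.4, 15.2 and 13.5 in siMlx. The groups did not overlap, and all siCtrl libraries were above both, at 58.3, 64.7 and 70.8 (log2 fold change 1.50 ± 0.33, SE, adjusted p = 0.225, limma; called only without siRfx1 replicate 1, adjusted p = 0.0426). Chd4, its ATPase, was at 12.8, 12.3 and 15.1 in siRfx1, against 7.96, 7.64 and 6.94 in siMlx and 21.2, 22.4 and 24.1 in siCtrl (log2 fold change 0.76 ± 0.21, SE). Hdac1, one of the deacetylases, was under the filter, and Hdac2 had -0.05 ± 0.35. In the SWI/SNF complexes 3 of 20 tested members were at an unadjusted p under 0.05 and higher (15%) and 1 lower. Ss18 was at 27.4, 27.9 and 27.2 in siRfx1, against 16.4, 15.2 and 15.5 in siMlx (log2 fold change 0.77 ± 0.20, SE). Arid1a, the defining subunit of the BAF form, was at 43.2, 47.3 and 46.9 against 29.5, 26.1 and 33.0. Of 38 histone modifying enzymes 27 were above 0, and 3 (7.89%) were at an unadjusted p under 0.05 and higher, a share near that of all genes, with 0 such genes without siRfx1 replicate 2 or 3. Of 22 tested Polycomb genes 9 were above 0 and 13 below, 2 were at an unadjusted p under 0.05 and higher, and the median was -0.08.

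In the RNA polymerase II, Mediator and general factor list, 8 of 56 tested members (14.3%) were at an unadjusted p under 0.05 and higher and 4 (7.14%) lower, against 4.78% each way for all genes. Med15, a tail subunit of Mediator, the bridge between activators and the polymerase, had a log2 fold change of 1.11 ± 0.22 (SE), Med20 1.21 ± 0.26 and Med8 1.38 ± 0.32. Med11 was at 11.01, 18.6 and 17.5 in siRfx1 and 3.13, 1.51 and 7.99 in siMlx. The count of lower members was 1 without siRfx1 replicate 3 and 2 without siRfx1 replicate 2. The list median was 0.07, and 0 members were called by limma.

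Most members of the oocyte gene families had lower levels in siRfx1 than in siMlx, with 0 called by limma. The Fbxw cluster encodes F-box and WD40 proteins made in the oocyte, and 8 of its 13 tested members (61.5%) were at an unadjusted p under 0.05 and lower, against 4.78% of all genes. Its median log2 fold change was -0.88 beside -0.01 for all genes. Fbxw24 was at 378, 334 and 236 in siRfx1 and 742, 595 and 867 in siMlx, with no overlap (log2 fold change -1.23 ± 0.26, SE, adjusted p = 0.224, limma). Fbxw14 was at 289, 302 and 220 against 515, 441 and 756, and Fbxw19 at 35.1, 48.6 and 38.2 against 67.0, 65.2 and 81.2. Only Fbxw17, at 2.26 or less in every library, was above 0 in fold change. These members belong to a single family, so reads may be divided among them, though their sequence identity was not measured. The sum over the 13 genes, which such division affects less than single members, was 1379, 1369 and 951 in siRfx1, against 2462, 2081 and 3134 in siMlx. It was 476, 1282 and 625 in siEtv5 and 768, 630 and 703 in siCtrl, so that siMlx was above every other zygote library. The count of 8 was 4 without siRfx1 replicate 3, the lowest siRfx1 library for this cluster, and 6 to 9 without any other library, with list medians of -1.12 to -0.70.

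Of the oogenesin and Pramel genes, leucine-rich repeat genes of oocytes, 12 of 21 tested members (57.1%) were at an unadjusted p under 0.05 and lower, with a median of -0.67. Oog4 was at 356, 330 and 267 in siRfx1 and 582, 498 and 709 in siMlx, and Oog2 at 232, 185 and 144 against 340, 310 and 409. The summed level of the list was 12610, 9841 and 7092 in siRfx1, against 16570, 14100 and 21350 in siMlx, with no overlap. The count of 12 was 6 without siRfx1 replicate 3 and 8 without siMlx replicate 3. Of the oocyte NLRP genes, which include Nlrp5 of the subcortical maternal complex, 5 of 11 tested members (45.5%) were at an unadjusted p under 0.05 and lower, all 11 were below 0 and the median was -0.59. That count was 2 without siMlx replicate 1, siMlx replicate 3 or siRfx1 replicate 3, and 10 without siMlx replicate 2. Nlrp9a was at 58.3, 51.8 and 37.9 in siRfx1 and 89.8, 77.6 and 119 in siMlx, and Nlrp14 at 46.5, 74.0 and 51.9 against 103, 88.8 and 123. The 5 Obox genes, homeobox genes of oocytes, had a median of -0.35 with 0 at an unadjusted p under 0.05, and their summed levels overlapped (3000 to 4978 in siRfx1 and 3910 to 6275 in siMlx). Bmp15, a growth factor secreted by the oocyte, was at 1604, 1513 and 1176 in siRfx1, against 2370, 2098 and 2993 in siMlx (log2 fold change -0.79 ± 0.25, SE), while its partner Gdf9 was at 317, 437 and 384 against 299, 235 and 309 (log2 fold change 0.43 ± 0.23, SE).

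**Figure D4:**
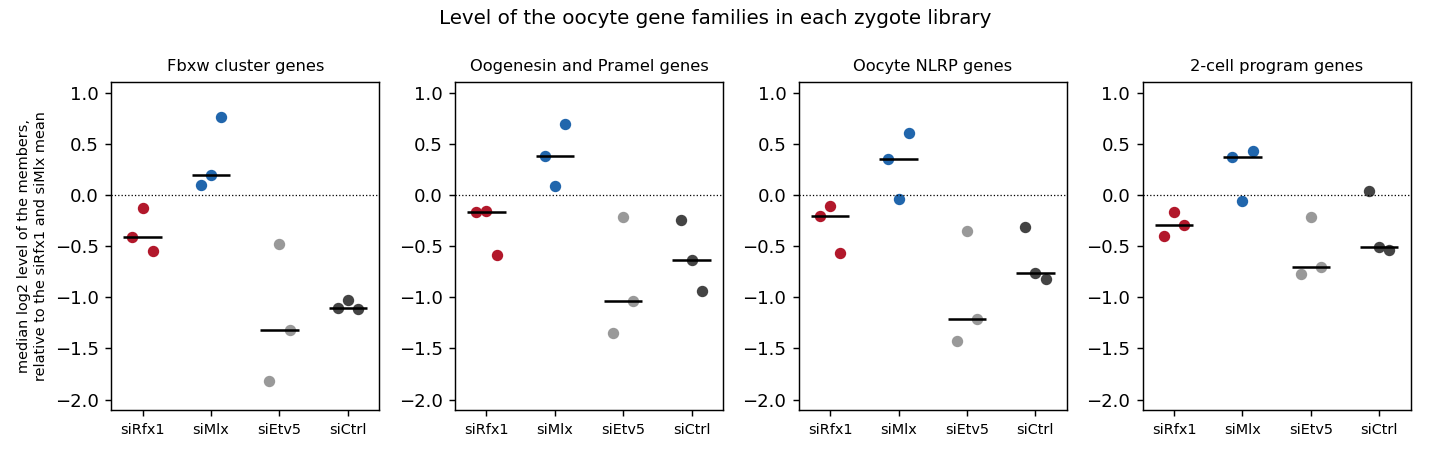
Median, over the tested members of 4 lists, of the log2(rescaled FPKM + 1) level relative to the mean of the siRfx1 and siMlx libraries, with a line at the median of each group of 3. The siMlx libraries were above the siRfx1 libraries in each panel, with the smallest gap among the NLRP genes (-0.10 in the highest siRfx1 and -0.04 in the lowest siMlx library).

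Genes of the 2-cell program also leaned to siMlx: 13 of 29 tested members (44.8%) were at an unadjusted p under 0.05 and lower in siRfx1 and 0 higher, with a median of -0.46. The count was 8 without siMlx replicate 3 or siRfx1 replicate 3. Zscan4c, a zinc finger gene with a burst of expression at the 2-cell stage, was at 6.66, 9.24 and 6.97 in siRfx1, against 12.8, 10.7 and 13.2 in siMlx (log2 fold change -0.63 ± 0.22, SE, adjusted p = 0.451, limma). Usp17la, a deubiquitinase gene, was at 4.42, 4.25 and 2.22 against 11.4, 6.63 and 15.7, and Gm2016 at 4.70, 6.63 and 2.98 against 11.8, 11.6 and 13.7. Dux, the double homeobox activator of this program, leaned the other way, at 6.92, 13.9 and 12.3 in siRfx1 and 7.16, 7.95 and 9.06 in siMlx, where the groups overlapped. The summed level of 14 markers of 2-cell embryos was 51.6, 64.0 and 51.1 in siRfx1, against 114, 83.2 and 112 in siMlx (exact permutation p = 0.1, two-sided, the smallest for 3 against 3, and 0.45 adjusted over 9 measures). Of these 14 markers 9 were tested and 3 were at 0 in all 6 libraries. Tdpoz3, under the filter, went the other way, at 0.591, 1.23 and 2.05 in siRfx1 and 0.191, 0 and 0.515 in siMlx. The 2-cell program list is made largely of multicopy genes, and its summed level, which 1 abundant gene dominates, overlapped (5083 to 6211 in siRfx1 and 5617 to 8448 in siMlx). Genes higher in 2-cell embryos than in zygotes of the siEtv5 group, a list drawn from 3 zygote and 2 late 2-cell libraries outside the comparison, had a median of -0.07 over 2155 tested, with 3.71% at an unadjusted p under 0.05 and higher and 6.73% lower. Genes lower in those 2-cell embryos had a median of -0.01 over 2479 tested, with 4.76% and 4.80%.

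**Figure D5:**
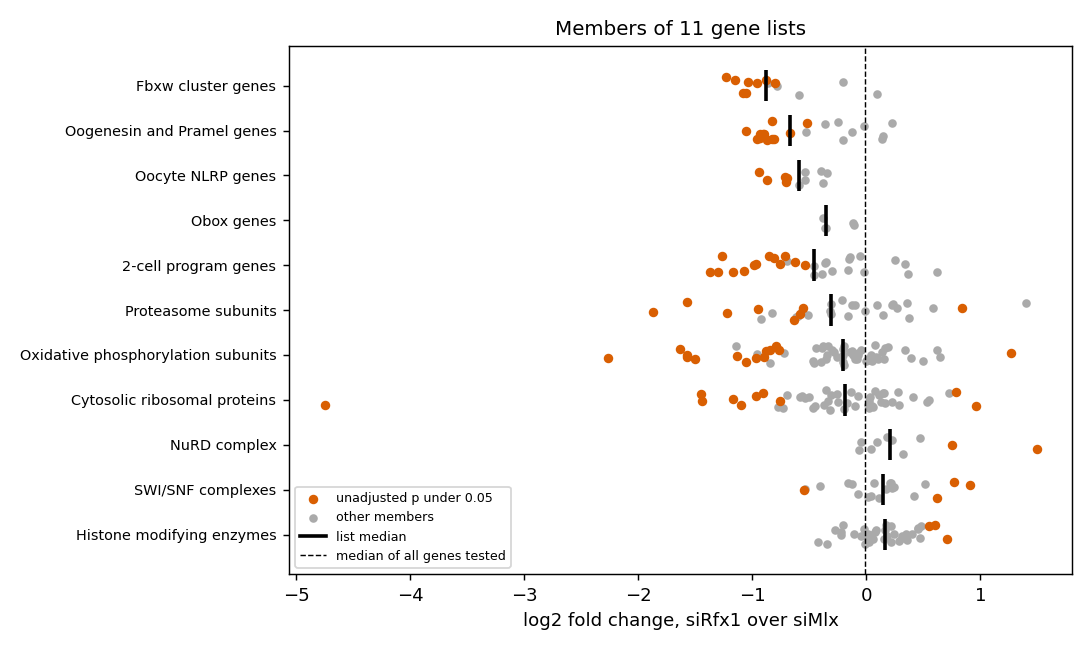
Log2 fold change (siRfx1 over siMlx) of each tested member of 11 gene lists; orange points have an unadjusted limma p under 0.05, black bars are list medians and the dashed line is the median of all genes tested (-0.01). The Fbxw cluster has the lowest median (-0.88) and the NuRD complex the highest of those drawn (0.20).

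Genes of the mitochondrial respiratory chain, the ribosome and the proteasome had more low than high members in siRfx1. Of 62 tested oxidative phosphorylation subunits 13 (21.0%) were at an unadjusted p under 0.05 and lower and 1 higher, with a median of -0.21 and with Atp5f1 as the single call. Their summed level overlapped, at 2707, 2445 and 2578 in siRfx1 and 2768, 3534 and 2431 in siMlx. The sums of the proteasome and the cytosolic ribosomal lists did not overlap. Ndufa1, a subunit of complex I, was at 27.7, 34.6 and 28.8 in siRfx1 and 67.2, 58.6 and 65.5 in siMlx, with no overlap (log2 fold change -1.05 ± 0.21, SE, adjusted p = 0.206, limma). Ndufa2, another, was at 5.81, 4.37 and 5.62 against 10.8, 10.3 and 9.60. Of 31 proteasome subunits 7 (22.6%) were at an unadjusted p under 0.05 and lower and 1 higher, with a median of -0.31 that was 0.35 among the genes of at least 2 kb. The count was 13 without siMlx replicate 2 and 4 without siRfx1 replicate 2 or 3. Besides Psmd11, Psma5 was at 1.91, 7.99 and 6.36 in siRfx1 and 20.6, 13.2 and 15.6 in siMlx. Of 50 tested cytosolic ribosomal proteins 8 (16%) were at an unadjusted p under 0.05 and lower and 2 higher, with a median of -0.18. Rpl41 was at 8.43, 17.2 and 17.8 in siRfx1, against 40.5, 30.2 and 49.1 in siMlx. These 3 lists hold short transcripts, with median lengths of 680, 1296 and 746 bases beside 2680 for all genes, and transcript length moved with the contrast. Among genes under 1000 bases the median log2 fold change was -0.13, with 12.1% at an unadjusted p under 0.05 and lower, and among genes of at least 4000 bases it was 0.04, with 1.19% lower. The short genes relative to the long were at -0.09, -0.12 and -0.05 (log2) in siRfx1 and at 0.20, 0.00 and 0.17 in siMlx. With the length trend removed the medians of the 3 lists were -0.11, -0.20 and -0.04, and that of the Fbxw cluster was -0.81, nearly as large as with the trend. The part of length in the lists of short genes was not tested further.

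Further lists were described in the same way. Splicing factors had a median of 0.04 with 1 of 49 tested members each way at an unadjusted p under 0.05, cell cycle and mitotic regulators -0.06 with 0 of 44 higher and 2 lower, and DNA replication genes 0.06 with 3 of 44 higher and 1 lower. The list of p53 targets and DNA damage response genes had 0 of 19 either way and the m6A machinery 1 of 17. Among maternal effect and subcortical maternal complex genes 3 of 27 were at an unadjusted p under 0.05 and higher and 3 lower (11.1% each). Tet3, the dioxygenase that oxidizes 5-methylcytosine in the paternal genome, was at 138, 114 and 143 in siRfx1, against 80.8, 88.9 and 73.9 in siMlx (log2 fold change 0.69 ± 0.21, SE), and Ctcf was at 47.1, 36.4 and 36.8 against 40.9, 63.0 and 38.4 (log2 fold change -0.21 ± 0.25, SE). Of the transcription factors the study names, Nfya was at 16.8, 21.6 and 20.1 in siRfx1, against 12.4, 12.5 and 11.8 in siMlx (log2 fold change 0.63 ± 0.21, SE, adjusted p = 0.432, limma). Usf2, Klf7, Etv1 and Etv5 had 0.43, 0.53, -0.02 and -0.41, none called, and Srebf1 was under the filter.

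The siCtrl libraries, which took no part in choosing the genes, lay nearer to siRfx1 than to siMlx at most of the genes that separated the 2 KD groups. How often this held over all tested genes was not computed, so the counts below are not shown to be particular to these genes. Of the 417 genes higher in siRfx1 at an unadjusted p under 0.05 the siCtrl mean was nearer to the siRfx1 mean at 336 (80.6%), and of the 417 lower genes at 351 (84.2%). It lay beyond the siRfx1 mean, on the side away from siMlx, at 195 and 190 of them. The siEtv5 mean was nearer to siRfx1 at 320 (76.7%) and 311 (74.6%). Of the 10 called genes the siCtrl mean was nearer to siRfx1 at 7 and the siEtv5 mean at 7, and both were at 6. With medians in place of means the counts were 8 for siCtrl and 6 for siEtv5. These counts use log2 levels, and with FPKM as deposited siCtrl was nearer at 378 and 286 genes. Of the 2 KD groups compared, siMlx had the lower correlations among its own libraries (r 0.919 to 0.956, against 0.953 to 0.968 within siRfx1). They were not computed within siCtrl or siEtv5.

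The share of promoters that hold the letters of either factor was close to that of all genes. Of the genes higher in siRfx1 at an unadjusted p under 0.05, 10.6% held CACGTG (95% Wilson interval 7.95 to 13.9%) and 13.7% GTTGCC (10.7 to 17.3%). Of the lower genes 9.59% (7.12 to 12.8%) and 9.35% (6.92 to 12.5%) did, beside 10% and 11.9% of all tested genes. Of the 10 called genes 2 held CACGTG and 1 GTTGCC. The difference in GTTGCC between higher and lower genes was not tested, and their intervals overlap.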

How the data were processed

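RNA of mouse zygotes was converted to amplified cDNA and sequenced with a library kit that does not mark strand. The deposited files hold FPKM per transcript, which the authors made by aligning reads to mm9 with STAR 2.5.2b and estimating RefSeq transcripts with StringTie, with no strand option. The submitters' processing notes give StringTie 1.3.4 and the file headers 1.3.3b. FPKM keeps no counts, so the depth behind a value is known only as the aligned bases per library. Values were summed over the transcripts of each gene name (22619 genes), and transcripts without a name, 0.697 to 1.25% of the FPKM, were left out. Each library was rescaled by its median ratio to the others, taken over genes that reached 1 FPKM in all 6, and a mean of 1 FPKM was required for testing. log2(rescaled FPKM + 1) was tested with limma 3.58.1 (moderated test with a mean trend, R 4.3.3) on the 6 libraries without covariates, and p-values were adjusted over all 8720 genes by the Benjamini-Hochberg method. A fold change is on that scale and understates the change of low genes. Genes were called where the adjusted p was under 0.05 and the change exceeded a fold of 2. Fold changes are siRfx1 over siMlx. The test was tried on simulated data. Tables were handled with Python 3.11.15, numpy 2.4.6, scipy 1.17.1 and pandas 2.3.3.

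Genes were named by a rule: up to 10 called genes in each direction, filled by those of lowest p up to 5, the targets and the factors that the study names, and up to 4 members of each of 33 gene lists, those of lowest p where none was called. Other genes with values were chosen after their values were seen. A gene that the rule names is not reported here. The comparison and the lists were chosen with earlier results of these data known. Because few genes were called, lists, side values and promoters were described at an unadjusted p under 0.05, chosen after seeing the data. Promoters, 250 bases before to 50 after the start, were read from mm9. The alternatives were FPKM as deposited, other filters, another pseudocount, a fold of 1.5, removal of the length trend, all 4 zygote groups in a single fit, voom on estimated fragments, a replicate block, leaving out each library and, added after seeing the data, overlapping genes summed.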

Additional observations from a re-analysis of the deposited data

How the results depend on the processing

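No direction of a reported fold change was reversed at a called value under any alternative. Against 10 genes called (4 higher and 6 lower in siRfx1), there were 0 (0 and 0) both with voom on estimated fragments and when all 4 zygote groups shared a fit, 1 (0 and 1) among genes of at least 2 kb, 2 (1 and 1) without a filter, and 6 (3 and 3) with a pseudocount of 0.1. A filter at 5 FPKM gave 7 (2 and 5), FPKM as deposited 10 (5 and 5), removal of the length trend 9 (4 and 5), and overlapping genes summed 9 (3 and 6). Leaving out 1 library gave 3 to 9 calls, 1 to 7 higher and 2 to 3 lower. The replicate block gave 20 (8 and 12), but the numbers did not pair the samples: the correlations of same-numbered libraries were -0.06, -0.25 and -0.10, so none correlated best with its own number. The difference in Rfx1 was -1.68 with a pseudocount of 0.1 and -0.81 to -0.62 without 1 library. Of the 134 named genes tested and not called, 6 were called under some alternative. Of 558 list medians 64 moved beyond the replicate spread, 26 of them with FPKM as deposited. The aligned bases set what low genes such as Rfx1 can show, and FPKM give no counting error.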

Other observations

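Other lists gave values not described above. Of 37 tested nucleoporins and nuclear transport genes 4 (10.8%) were at an unadjusted p under 0.05 and higher in siRfx1 and 1 lower, with a median of 0.10. Of 47 translation initiation factors 34 were below 0, beside 51.2% of all genes, while 2 (4.26%) were at an unadjusted p under 0.05 and higher and 3 (6.38%) lower, near the 4.78% of all genes, with Eif3i as the only call. Of 32 heat shock proteins and chaperonin subunits 3 were lower and 0 higher, and of 29 glutathione and antioxidant genes 3 were lower and 1 higher. None of these lists was tested as a set.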
